A study of Mus musculus with 3 samples.

Results

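The genes described are 10 members of the Wnt pathway, namely the feedback inhibitors Apcdd1, Notum, Axin2, Nkd1 and Nkd2, the R-spondin Rspo2, the ligand Wnt4, the secreted antagonist Sfrp1, and the nuclear proteins Lef1 and Tle4. They were taken as every probe set whose only gene symbol in the array annotation was one of these names, which gave 31 of 34945 probe sets of a single symbol and 10 of 18193 genes. The genes had been picked from earlier results of the same 3 arrays, by how they differed between the media, so all their values are given as description and without a test.

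Expression was measured in MC3T3-E1 cells, a preosteoblast line from mouse calvaria, the flat bone of the skull, labelled as strain C57BL/6. One group was grown for 3 days at 37 °C in osteogenic medium with 0.6% dimethyl sulfoxide (DMSO), a solvent, the next in osteogenic medium without DMSO, and the last in normal medium. All of the media were MEM α with 10% fetal bovine serum. The osteogenic ones also held a phosphate donor, beta-glycerophosphate, at 10 mM and a vitamin C derivative, ascorbic acid 2-phosphate, at 150 µM. A single array was hybridised per medium, so no p-value can be given, and every value has only the precision that so few arrays allow. The cells are 1 established line, and the question was what osteogenic medium changed and what DMSO changed within it, where the labels report more alizarin red S staining of calcium.

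Wnt ligands bind Frizzled and LRP receptors and stop the breakdown of beta-catenin, which then works with TCF and LEF factors on DNA. R-spondins strengthen the signal by keeping receptors at the cell surface. The pathway switches on its own inhibitors, and in bone it is known for promoting osteoblast formation and activity.

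To show the DNA next to the start of the genes described, the windows upstream of Axin2, Nkd2 and 2 annotated starts of Lef1 are printed. With Apcdd1 left out, these were the 3 genes with a window that stood highest above normal medium in osteogenic medium. Each holds 250 bases before a start, 5′ to 3′ on the strand of the gene, from RefSeq on GRCm38.p6. Capitals mark the core CTTTG of the sites that LEF and TCF proteins bind, on either strand, and the whole site where the core was followed by AA, AT, TA or TT.
Axin2, chr11:108920099-108920348, plus strand: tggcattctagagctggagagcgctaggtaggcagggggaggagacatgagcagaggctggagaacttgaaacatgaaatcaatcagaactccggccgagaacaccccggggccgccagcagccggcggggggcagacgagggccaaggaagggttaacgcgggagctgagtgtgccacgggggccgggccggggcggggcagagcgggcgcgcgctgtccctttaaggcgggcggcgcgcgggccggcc
Nkd2, chr13:73847632-73847881, minus strand: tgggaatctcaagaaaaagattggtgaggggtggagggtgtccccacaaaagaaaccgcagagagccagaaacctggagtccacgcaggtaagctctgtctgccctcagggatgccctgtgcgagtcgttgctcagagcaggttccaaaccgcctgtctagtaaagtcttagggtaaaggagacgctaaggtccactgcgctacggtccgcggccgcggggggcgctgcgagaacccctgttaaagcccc
Lef1, chr3:131110047-131110296, plus strand: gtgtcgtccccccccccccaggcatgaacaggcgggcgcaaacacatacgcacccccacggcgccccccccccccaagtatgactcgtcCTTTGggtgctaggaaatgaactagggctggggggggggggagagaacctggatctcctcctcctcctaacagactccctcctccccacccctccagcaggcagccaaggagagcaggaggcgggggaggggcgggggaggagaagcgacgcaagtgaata
Lef1, a further start, chr3:131156044-131156293, plus strand: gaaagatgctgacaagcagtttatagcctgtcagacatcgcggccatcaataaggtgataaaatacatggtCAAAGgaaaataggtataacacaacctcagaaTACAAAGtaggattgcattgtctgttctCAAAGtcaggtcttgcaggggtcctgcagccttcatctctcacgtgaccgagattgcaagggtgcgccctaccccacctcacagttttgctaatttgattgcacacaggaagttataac

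Windows were counted for 6 of the 10 genes, with 10 starts in all, on Axin2, Lef1, Nkd1, Nkd2, Tle4 and Wnt4. Apcdd1, on chromosome 18, was left out of these counts, and Notum, Rspo2 and Sfrp1 had no window. The shares over all windows below were taken with that chromosome included. A site of 7 letters, the core with its 2 following letters, was found in 1 of these 10 windows, the further start of Lef1, as TACAAAG, which reads CTTTGTA on the other strand, with its first base at position -147 from the start. The core of 5 letters was in 4 of the 10 windows, all of them of Lef1. Of these, 2 overlap and hold the same core, which is thus counted in both. Of all 32851 windows in the table, 14.8% held a site of 7 letters and 48.6% the core, which each such site includes. The windows of Axin2 and Nkd2 held neither in these 250 bases, and their GC contents were 69.2% and 58.4%, against a median of 52.4% over all windows.

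In osteogenic medium, Apcdd1 and Notum rose, to 6.23 and 6.85 on the log2 scale, against 4.06 and 5.19 in normal medium. With DMSO, Tle4 rose to 5.34, against 4.27 in osteogenic medium without it, and Rspo2 fell to 5.57 with DMSO, against 6.88 in osteogenic medium without it. A gene is said to have risen or fallen where its level differed 2-fold or more between 2 arrays, a log2 difference of 1, after values under a floor of 3.54, the 50th percentile of all probe sets, were raised to that floor. Each gene is given first by the probe set with the highest mean over the arrays. In RNA from a whole culture, fewer cells of a type and less RNA per cell cannot be told apart, and since the arrays were on a common scale when deposited, a change in total RNA would not be seen.

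**Figure D1:**
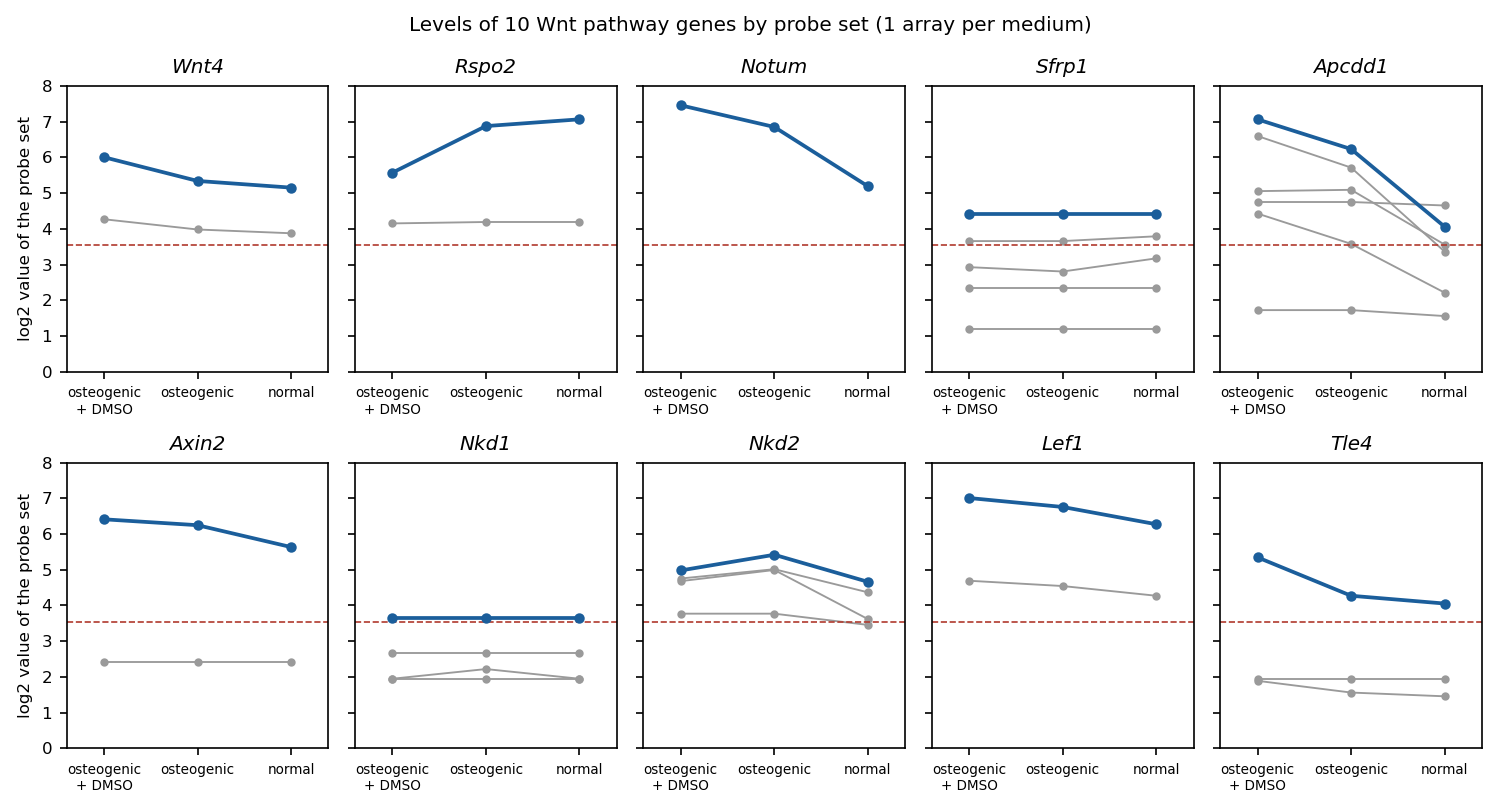
Log2 values of all 31 probe sets of the 10 genes in osteogenic medium with DMSO, osteogenic medium and normal medium, 1 array each. Thick blue lines are the probe set with the highest mean, grey lines the other probe sets, and the dashed line is the floor of 3.54. Apcdd1 and Notum are lowest in normal medium, Rspo2 is lowest with DMSO, and the blue lines of Nkd1 and Sfrp1 run flat.

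A few facts of the arrays bear on these values. The arrays had medians of 3.54, 3.57 and 3.54 with DMSO, in osteogenic medium and in normal medium, and 22424 to 22539 probe sets above the floor. The 18 spike probe sets, which read RNA added at hybridisation, had a median change of 0.10 for osteogenic minus normal medium and -0.03 for DMSO. For 5183 genes with 2 probe sets above the floor, the changes of the pair differed with an SD of 0.19 in osteogenic medium and 0.15 with DMSO. Both probe sets of a pair read the same RNA, so this SD holds no spread between cultures. A difference above it may still lie within that spread. Among defining markers, all 8 osteoblast genes with a probe set were above the floor on all arrays, with a mean log2 value of 10.9 with DMSO, 10.7 in osteogenic medium and 9.99 in normal medium. All 4 adipocyte genes were under the floor, as were 4 of 5 endothelial genes and 4 of 6 macrophage and osteoclast genes, Ptprc among them. The other 2 of that last list were above the floor on all arrays. Ctsk stood at 9.29, 9.46 and 9.35 and Csf1r at 4.41, 4.41 and 4.66, in the same order. Of the chondrocyte genes 2 of 5 were above the floor, and their list averaged 5.22, 5.23 and 5.06 in the same order. Col2a1, the cartilage collagen, stood at 8.08, 8.01 and 7.16, and Sox9, the cartilage transcription factor, at 7.42, 7.52 and 7.52. Of the muscle genes 2 of 5 were above the floor, at equal values on all arrays. The part of these markers in the values of the Wnt genes was not tested.

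The deposited values are coarse, which matters most for the dim genes. Above the floor, 58.6% of probe sets on the array with DMSO, 60.1% in osteogenic medium and 52.2% in normal medium shared their exact value with at least 1 other probe set. Of the 31 probe sets of the genes described, 18 were above the floor on all arrays, 3 on some and 10 on none. Exactly equal values on all arrays were found for 8 of them (25.8%), 2 above the floor and 6 under it, against 34.1% of all probe sets of a single symbol.

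Osteogenic against normal medium was compared first. Of the 10 genes, 2 rose at least 2-fold, where 0.473% of the 11417 genes measured did, and none fell, where 0.184% of genes did. The genes had been picked by these values, so nothing is read from the excess. Their median change was 0.35, beside 0.00 over all genes, with 7 genes higher, 1 lower and 2 equal, where 36.5% of genes were higher and 38.7% lower. By probe set, 5 of the 21 above the floor on either array rose, belonging to Apcdd1, Notum and Nkd2, beside 0.375% of all probe sets. With DMSO against without, 1 gene rose and 1 fell, beside 0.0525% and 0.552% of 11423 genes. The median of the 10 genes was 0.21, beside 0.00 over all genes, with 6 higher and 2 lower, where 40.5% of genes were higher and 30.3% lower. By probe set, 1 rose and 1 fell, beside 0.0395% and 0.469% of all probe sets.

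Wnt4 encodes a Wnt ligand that in mice acts in kidney and female reproductive development and has been studied in bone. Its level was 6.01 in osteogenic medium with DMSO, 5.34 in osteogenic medium and 5.16 in normal medium. The value with DMSO was thus the highest, and those of the other 2 media differed by about the SD of 0.19 between probe sets. Osteogenic medium against normal medium gave a change of 0.19, and DMSO against osteogenic medium one of 0.66, which is 1.58-fold and under the 2-fold limit. The second probe set of Wnt4 stood at 4.27 with DMSO, 3.98 in osteogenic medium and 3.88 in normal medium. It kept the order, with a DMSO change of 0.29 in place of 0.66.

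Rspo2 encodes an R-spondin, a secreted protein that binds LGR receptors and amplifies Wnt signals. It was the one gene of the group to fall in either main comparison. Its probe set with the highest mean stood at 5.57 in osteogenic medium with DMSO, 6.88 in osteogenic medium and 7.07 in normal medium. The level with DMSO was therefore the low one, and the others were close together. With DMSO it fell by 1.30 on the log2 scale, 2.47-fold, the rank of 36 from the bottom among 11423 genes, while osteogenic against normal medium gave -0.19. The second probe set of Rspo2 did not show the fall. It was dim and stood at 4.15, 4.19 and 4.19 in the same order, a DMSO change of -0.04, and its values in the last 2 media were shared with 249 and 246 other probe sets. With the mean of both probe sets in place of the brighter one, the change was -0.67, under 2-fold.

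Notum encodes a secreted enzyme that removes the lipid from Wnt proteins and so inactivates them, and it is switched on by Wnt signals in several tissues. It has a single probe set here, so nothing checks its values within the array. Notum stood at 7.46 in osteogenic medium with DMSO, 6.85 in osteogenic medium and 5.19 in normal medium. The levels were ordered with DMSO highest and normal medium lowest. In osteogenic medium it rose 3.16-fold (1.66 on the log2 scale), the rank of 14 among 11417 genes. DMSO against osteogenic medium gave a further 0.61, or 1.52-fold, which does not count as a rise, and ranked 37 among 11423 genes.

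Sfrp1 encodes a secreted Frizzled-related protein that binds Wnt ligands. All 3 values of its brightest probe set, which bears the suffix x of sets whose probes may also bind other transcripts, were 4.41. On each array 190 to 228 other probe sets held that level exactly. Of the other 4 probe sets of Sfrp1, without the suffix, 3 were under the floor on all arrays. The remaining one stood at 3.66 with DMSO, 3.66 in osteogenic medium and 3.79 in normal medium. The probe sets of Sfrp1 above the floor thus differed between media by less than the SD of 0.19 between probe sets.

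Apcdd1 encodes a membrane glycoprotein that binds Wnt and LRP proteins and inhibits the pathway, and it is known as a target of beta-catenin. It was the gene of the group with the largest change and the most probe sets, 6. Its brightest probe set stood at 7.07 in osteogenic medium with DMSO, 6.23 in osteogenic medium and 4.06 in normal medium. In osteogenic medium it rose 4.51-fold (2.17 on the log2 scale), the rank of 4 among 11417 genes, and DMSO against osteogenic medium gave 0.83, or 1.78-fold, the rank of 11 among 11423 genes.

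The probe sets of Apcdd1 shared the sign of the change in osteogenic medium but not its size, and split for DMSO. A second one stood at 6.60 with DMSO, 5.72 in osteogenic medium and 3.37, under the floor, in normal medium, so its rise in osteogenic medium was at least 2.17 and its DMSO change was 0.88. Both of these bear the suffix x, which Affymetrix gives to sets with probes that may also bind other transcripts. Of those without the suffix, one stood at 5.06, 5.09 and 3.56 in the same order, a rise of 1.53 in osteogenic medium and a DMSO change of -0.04. Another stood at 4.43 with DMSO, 3.58 in osteogenic medium and 2.22 in normal medium, with a DMSO change of 0.85. Its change in osteogenic medium was at least 0.04, since normal medium was under the floor, and 1.37 in the values as deposited. The remaining 2 showed little. One, with the suffix and above the floor on all arrays, stood at 4.75, 4.75 and 4.66, a change of 0.10 in osteogenic medium, and the other was under the floor on all arrays. The level in osteogenic medium was above that in normal medium in all 6 as deposited, while the DMSO change was 0.83 to 0.88 in 3 of them, 0 in 2 and -0.04 in 1. At least 3 of the 6 were designed on the same source sequence, so they are not independent. With the mean of the probe sets above the floor in place of the brightest one, the rise of Apcdd1 in osteogenic medium was 1.20, and with the brightest set named _at it was 1.53, against 2.17.

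**Figure D2:**
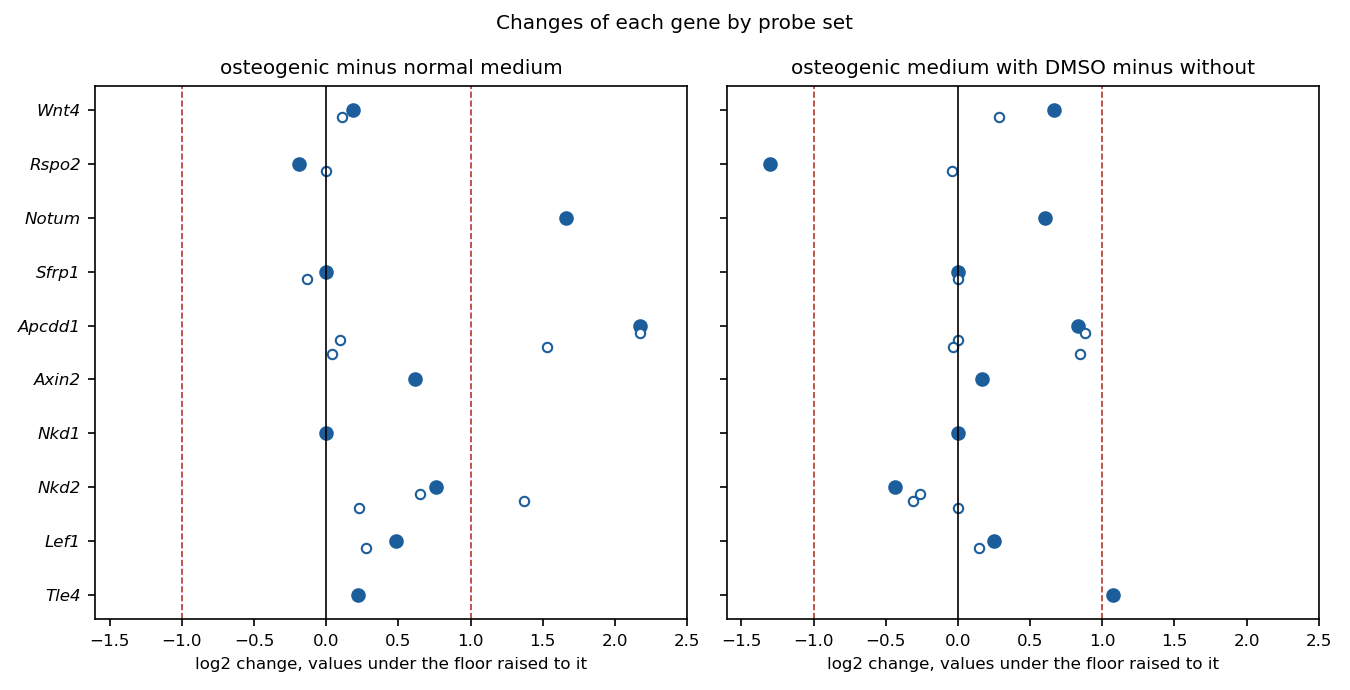
Log2 changes of the 21 probe sets above the floor on at least 1 array, for osteogenic minus normal medium (left) and osteogenic medium with DMSO minus without (right). Filled points are the probe set with the highest mean, open points the other probe sets, and dashed lines the 2-fold limit. Apcdd1 and Nkd2 spread widely between probe sets on the left, and Rspo2 differs between its 2 probe sets on the right (-1.30 and -0.04).

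Axin2 encodes a scaffold of the complex that marks beta-catenin for breakdown and is widely used as a readout of Wnt signalling. It was highest with DMSO, at 6.41, followed by 6.25 in osteogenic medium and 5.63 in normal medium. Its change of 0.61 in osteogenic medium, 1.53-fold, stayed under 2-fold and ranked 183 of 11417 genes. The DMSO change of 0.16 was close to the SD of 0.15 between probe sets. Its other probe set was under the floor, at 2.41 on all arrays.

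Nkd1 and Nkd2 encode the naked cuticle proteins, which bind Dishevelled inside the cell and restrain the signal. All 3 values of the brightest probe set of Nkd1 were 3.66, barely above the floor and shared on each array with 463 to 521 other probe sets, and its other 3 probe sets were under the floor. The level of Nkd1 was thus close to the floor in all media. Nkd2 was measured, at 4.98 in osteogenic medium with DMSO, 5.42 in osteogenic medium and 4.66 in normal medium. Its order differed from that of Apcdd1, Notum and Axin2, with the highest level in osteogenic medium without DMSO. The changes were 0.76 for osteogenic against normal medium and -0.44 for DMSO, both under 2-fold.

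The other 3 probe sets of Nkd2 kept its direction in osteogenic medium but not its size. One rose by 1.37, with 4.68 with DMSO, 4.99 in osteogenic medium and 3.62 in normal medium, a second was higher by 0.65, and the dimmest by at least 0.23. With DMSO they were at -0.31, -0.26 and 0.00. The count of 2 risen genes therefore leaves out a 2-fold rise in 1 of the 4 probe sets of Nkd2.

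Lef1 encodes a DNA-binding partner of beta-catenin whose own gene is a target of the pathway. Osteogenic medium with DMSO gave 7.01, osteogenic medium 6.76 and normal medium 6.27. Both differences were above 0 and under 2-fold, at 0.48 for osteogenic against normal medium and 0.25 for DMSO. The second probe set followed the same order at 4.69, 4.54 and 4.27, with changes of 0.27 and 0.15. In each comparison its change was smaller than that of the first.

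Tle4 encodes a Groucho corepressor, which binds TCF factors and represses their targets when beta-catenin is low. It stood at 5.34 in osteogenic medium with DMSO, 4.27 in osteogenic medium and 4.05 in normal medium. The level with DMSO stood apart, and the other 2 were 0.22 apart. With DMSO it rose 2.11-fold (1.07 on the log2 scale), the rank of 4 from the top among 11423 genes and just past the limit. Its value in osteogenic medium was shared with 246 other probe sets, and its other 2 probe sets were under the floor on all arrays, so the rise rests on 1 probe set. One of them stood at 1.89, 1.56 and 1.46 in the same order, and the other at 1.95 throughout. With the floor at the 60th percentile, which lies above the level of Tle4 in osteogenic medium, the rise became a bound of at least 0.87.

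**Figure D3:**
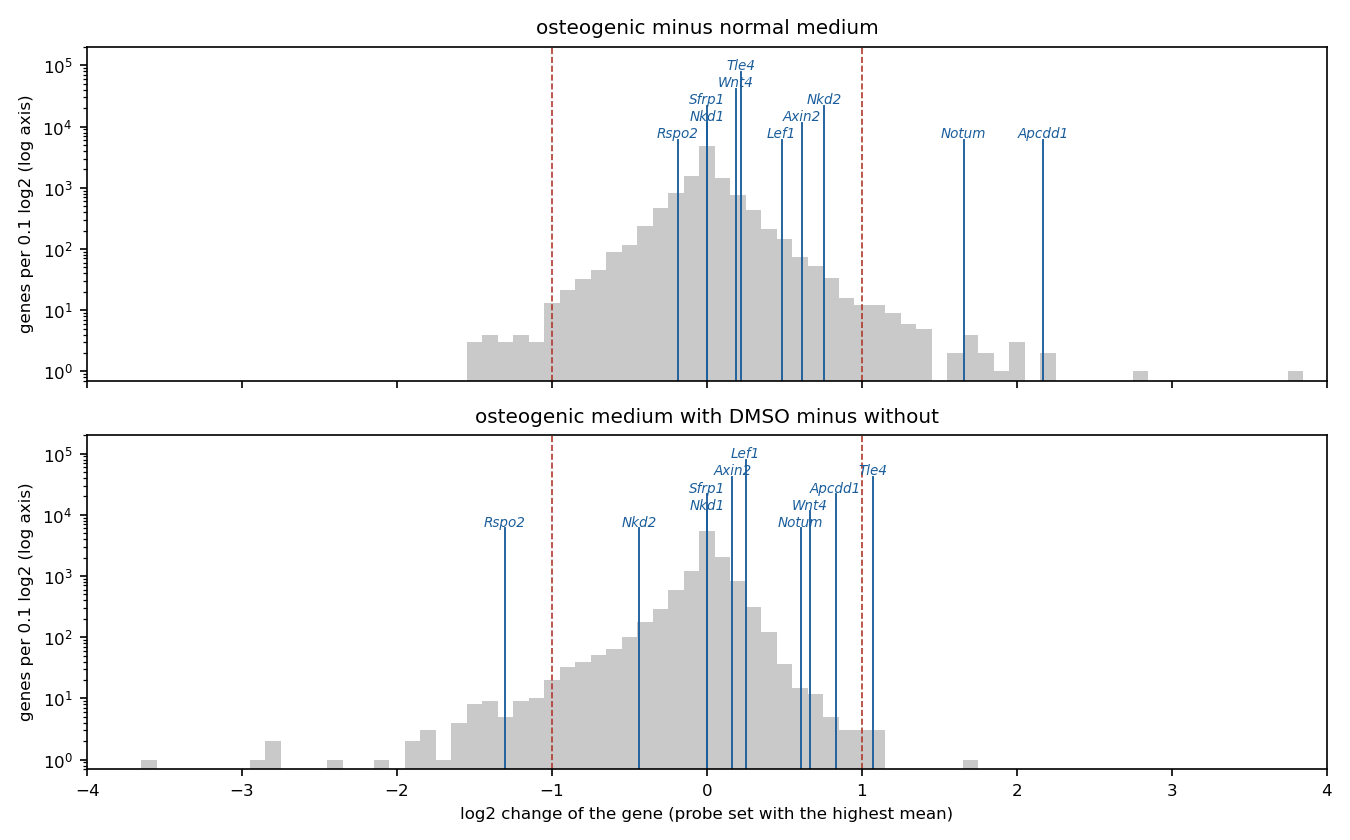
Numbers of genes by log2 change in bins of 0.1 (log axis), for osteogenic minus normal medium (top, 11417 genes) and osteogenic medium with DMSO minus without (bottom, 11423 genes). Blue lines mark the 10 genes described and dashed lines the 2-fold limit. Notum (1.66) and Apcdd1 (2.17) lie past the limit on the top, and Tle4 (1.07) and Rspo2 (-1.30) on the bottom.

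Osteogenic medium with DMSO was also set against normal medium, a comparison whose changes are the sums of the others. Of the 10 genes, 3 rose, beside 0.604% of 11422 genes, and 1 fell, beside 1.34%. The rises were 8.02-fold for Apcdd1, 4.80-fold for Notum and 2.45-fold for Tle4, and Rspo2 fell 2.82-fold. The size for Apcdd1 depends on the probe set, with 3.00 on the log2 scale for the brightest one, 1.71 for the mean of those above the floor and 1.496 for the brightest set named _at. The fall of Rspo2 was under 2-fold with the mean of its probe sets (-0.77), and the rise of Tle4 was at least 0.87 with the floor at the 60th percentile. Wnt4, Axin2 and Lef1 stood at 0.85, 0.78 and 0.73, and Nkd2 at 0.32. The median over the 10 genes was 0.76, beside 0.00 over all genes.

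The nearest genes in the plane of both main changes, by Euclidean distance between log2 changes over the 3 arrays, were looked up for Apcdd1, Notum and Rspo2 among 10798 genes above the floor on all arrays. For Apcdd1 these were Ifitm5 (distance 0.28), Panx3 (0.42) and Ibsp (0.45). Ifitm5, an osteoblast membrane protein, had changes of 2.04 in osteogenic medium and 1.08 with DMSO, and Ibsp, bone sialoprotein, had 2.18 and 0.38. For Notum they were Alpl (0.12), the alkaline phosphatase of bone, Panx3 (0.15), a channel protein, and Sgms2 (0.29), a sphingomyelin synthase. Alpl stood at 9.02 in osteogenic medium with DMSO, 8.31 in osteogenic medium and 6.61 in normal medium. For Rspo2 they were Aoc3 (0.09), an amine oxidase, Cbr2 (0.16), a carbonyl reductase, and Ackr3 (0.16), a chemokine receptor, with DMSO changes of -1.39, -1.15 and -1.37. All of these were found by the changes themselves, so their likeness is by construction. Each position also rests on the brightest probe set. The other probe set of Rspo2 had a DMSO change of -0.04, and the brightest _at set of Apcdd1 had changes of 1.53 and -0.04. Whether the genes named share regulation was not tested.

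The rest of the pathway was followed in lists by role, which like the genes described were drawn up with earlier results known. Of the 18 other Wnt ligands, 8 were above the floor. None changed 2-fold in osteogenic medium, where their median was 0.13, and with DMSO 1 fell, beside 0.552% of all genes. This was Wnt9a, which stood at 3.87 with DMSO, 4.99 in osteogenic medium and 4.99 in normal medium. The other probe set of Wnt9a was under the floor on all arrays, so the fall rests on 1 probe set. Wnt10a, a ligand known from bone and tooth, was higher by 0.50 in osteogenic medium and equal with DMSO. Wnt7b had changes of 0.33 and 0.22, and Wnt6 of 0.17 and 0.29. Porcn, which acylates Wnt proteins, and Wls, which carries them to the surface, were both at -0.21 in osteogenic medium, and at 0.11 and -0.10 with DMSO.

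Of 8 genes of the R-spondin branch, 5 were measured and none changed 2-fold in either main comparison. Rspo3 stood at 5.21 in osteogenic medium with DMSO, 5.66 in osteogenic medium and 6.25 in normal medium, the same order as Rspo2, with changes of -0.59 and -0.45, and -1.04 between osteogenic medium with DMSO and normal medium. Rspo1 had changes of 0.45 and -0.75. Rnf43, a ubiquitin ligase that removes Frizzled receptors and is itself a Wnt target, stood at 4.75, 4.21 and 3.43, the last under the floor, with a bound of at least 0.67 in osteogenic medium, 0.54 with DMSO, and at least 1.21 between DMSO and normal medium. The receptor Lgr4 had 0.04 and 0.27.

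None of the 15 measured receptors changed 2-fold in osteogenic medium or with DMSO against without, and their medians were -0.01 in both comparisons. The largest were Fzd1, with 0.76 in osteogenic medium and -0.21 with DMSO, Lrp4, with 0.75 and 0.40, Ror2, with 0.55 and -0.01, and Fzd5, with -0.08 and 0.58. Between osteogenic medium with DMSO and normal medium, Lrp4, a receptor of the LRP family, rose 2.22-fold, as the 1 gene of the list to rise, beside 0.604% of all genes. The second probe set of Fzd5 was equal on all arrays. Among 9 measured secreted modulators, 2 rose in osteogenic medium and 1 fell with DMSO, beside 0.473% and 0.552% of all genes. The medians of this list were 0.34 and 0.00. Cthrc1, a secreted protein that binds Wnt and Frizzled, rose by 1.27 and was at -0.48 with DMSO. Sostdc1, an antagonist of both bone morphogenetic proteins and Wnt, stood at 3.85 with DMSO, 6.74 in osteogenic medium and 5.54 in normal medium, and its second probe set at 4.39, 6.29 and 5.13. It thus rose 2.29-fold in osteogenic medium and fell 7.41-fold with DMSO. Against normal medium, 2 of the list fell in osteogenic medium with DMSO, beside 1.34% of all genes. They were Sostdc1, by 3.24-fold, and Dkk3, a relative of Dkk1, by 2.07-fold. By its brightest probe set, Dkk3 stood at 7.86 with DMSO, 8.41 in osteogenic medium and 8.91 in normal medium. Wif1, a Wnt inhibitory factor, had 0.77 and 0.14, and Sfrp2, a relative of Sfrp1, had -0.63 and -0.34. Dkk1 and Sost, known inhibitors of the pathway in bone, were under the floor on all arrays.

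The TCF and corepressor list also held the beta-catenin cofactors Bcl9, Bcl9l, Pygo1 and Pygo2. The cytoplasmic transducers and this list had no 2-fold change among 19 and 11 measured genes in osteogenic medium or with DMSO against without. Their medians were 0.00 and -0.065 in osteogenic medium, and 0.00 and -0.065 with DMSO. Ctnnb1, which encodes beta-catenin, stood at 11.9 in osteogenic medium with DMSO, 11.8 in osteogenic medium and 11.7 in normal medium. Dact1, which binds Dishevelled, had changes of 0.94 and -0.73, and Dact2 of -0.45 and -0.89, with another probe set of Dact2 at 0.31 and 0.14. The kinase Csnk1a1 and the tankyrase Tnks were at -0.37 and -0.45 in osteogenic medium by their brightest probe sets. Their other probe sets above the floor did not show this size, with -0.08, 0.00 and 0.02 for Csnk1a1 and 0.00 and -0.13 for Tnks. Among the corepressors, Tle2 had -0.32 in osteogenic medium and -0.82 with DMSO, while Tle1 was equal on all arrays and Tle3 had 0.04 and 0.00. Between osteogenic medium with DMSO and normal medium, 1 gene of each list fell, beside 1.34% of all genes. These were Dact2, by 2.54-fold, and Tle2, by 2.20-fold. Tcf7l1, Tle5 and Tle6 were at -0.34, -0.30 and -0.18 in osteogenic medium and at -0.06, -0.09 and -0.27 with DMSO.

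Among 14 measured further genes known as targets of beta-catenin, 2 rose and 1 fell in osteogenic medium, beside 0.473% and 0.184% of all genes. None changed 2-fold with DMSO against without, where 0.0525% of all genes rose and 0.552% fell. The medians of the list were 0.04 and 0.04. Tnfrsf11b, the osteoclast-restraining decoy receptor osteoprotegerin, rose by 2.80 and its second probe set by 2.85, with DMSO changes of 0.08 and 0.55. Bambi, a decoy receptor for bone morphogenetic proteins, rose by 1.13 and had 0.55 with DMSO. Fgf18, a growth factor, fell by 1.33 and was equal with DMSO, and Ccn5 had -0.82 and -0.70. Against normal medium, 2 of the list rose and 2 fell in osteogenic medium with DMSO, beside 0.604% and 1.34% of all genes. Tnfrsf11b and Bambi rose 7.33-fold and 3.19-fold, and Fgf18 and Ccn5 fell 2.52-fold and 2.87-fold. These targets therefore went in both directions.

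**Figure D4:**
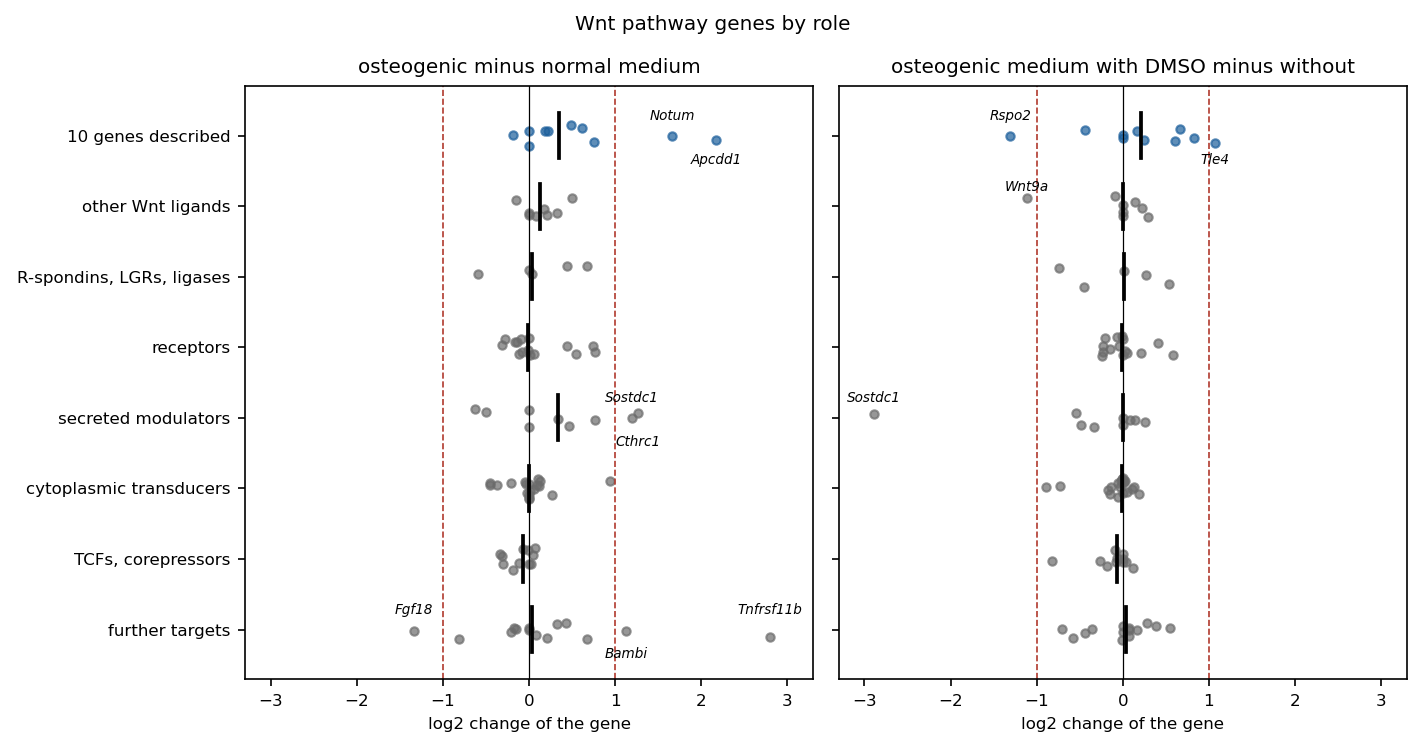
Log2 changes of genes above the floor on either array, by role in the pathway, for osteogenic minus normal medium (left) and osteogenic medium with DMSO minus without (right). Points are genes, with a small vertical scatter for legibility, black bars are medians, dashed lines mark 2-fold, and genes past it are named. The medians of the receptor, transducer and TCF lists lie between -0.065 and 0.00. The TCF and corepressor row also holds the cofactors Bcl9, Bcl9l, Pygo1 and Pygo2.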

How the data were processed

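Total RNA from 3 cultures of MC3T3-E1 cells, with an RNA integrity number over 9.5, was labelled by 3' in vitro transcription and hybridised to Affymetrix GeneChip mouse genome arrays, per the labels. The deposited values were taken as log2, since they run from 0.652 to 13.4. How the authors summarised and normalized the probes is not given in the sources used here.

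After removal of 64 control probe sets, 45037 remained. By the platform annotation of 2016, 34945 had 1 gene symbol and were used, 932 had several and 9160 were not named. Levels of different probe sets are not comparable with each other. Changes are log2 differences between 2 arrays after values under the 50th percentile (3.54) were raised to it, and a gene was called at 2-fold. A change with 1 side under this floor is a bound. With 1 array per group no test was made. The genes and lists were chosen with earlier results of these data known. The named genes are the 10 described, up to 4 per list with the largest changes plus any past 2-fold, and the 3 nearest to Apcdd1, Notum and Rspo2, without clone-number names. Ctnnb1, Dkk1, Dkk3, Sost, Tle1 and Tle3 were added after their values were seen. Alternatives were other floors, probe set choices, normalizations and a 1.5-fold limit. Apcdd1, on chromosome 18, was left out of the windows counted, and its sequence is not printed. The procedure was tested on simulated data, with changes put only into genes well above the floor and equal in every probe set of a gene. The simulation therefore does not show how calls behave for dim genes or where probe sets disagree. Python 3.11.15 (numpy 2.4.6, pandas 2.3.3, matplotlib 3.10.9) and R 4.3.3 (limma 3.58.1) were used.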

Additional observations from a re-analysis of the deposited data

How the results depend on the processing

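Under 8 alternatives, 230 values of the 10 genes were recomputed (the 9 in all include the 1.5-fold limit, which bears on counts alone), of which 221 kept their side of the 2-fold limit and moved by less than the SD between probe sets where they were under it, 4 lost the limit, 5 moved by more under it and none past it changed sign. The 5 were DMSO changes of Apcdd1, Nkd2 and Wnt4. Past the limit, Apcdd1 still moved far with the probe sets used, to 1.20 in osteogenic medium and 1.71 for DMSO against normal medium with their mean, and to 1.53 and 1.496 with _at sets alone. Those lost were Rspo2 with the mean of its probe sets (-0.67 with DMSO against without, -0.77 against normal medium) and Tle4 with the floor at the 60th percentile (at least 0.87 in both). The number of fallen genes was then 0 in both DMSO comparisons with the mean of probe sets, and the number risen with DMSO against without was 0 with the higher floor. With probe sets named _at alone, in which Notum has none, 1 gene rose in osteogenic medium, the DMSO change of Apcdd1 was -0.04 and the median of the 10 genes with DMSO was 0.00. The higher floor, which leaves fewer genes, gave medians of 0.61 in osteogenic medium and 0.43 with DMSO against without. At 1.5-fold, 4 genes rose in osteogenic medium (beside 1.75% of all genes), 4 with DMSO against without (0.35%) and 6 with DMSO against normal medium (2.59%). Quantile, cyclic loess and median centring moved no call of the 10 genes. No paired analysis was possible because each group has 1 array. Dim probe sets with shared values, as for Nkd1 and Sfrp1, have only coarse differences, and without replicate cultures no value has a biological error.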
